A study of Mus musculus with 7 samples.

Results

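Cells from the spleens of C57/Bl6 mice carrying an LLC tumor were compared with cells from naive spleens. The members were all counted cells of these 2 libraries, chosen by the library name in the authors' cell metadata. There were 995 such cells of the 4290 counted in the series, 579 from tumor-bearing and 416 from naive spleen. LLC is Lewis lung carcinoma, a transplantable mouse tumor, and the labels place the tumor-bearing samples at day 14. Both spleen samples were enriched for CD11b+ cells by magnetic separation and stained with oligo-tagged antibodies, so that RNA and surface proteins were read in the same cells on the 10X 3' platform. The labels name no other allele, drug or age, and do not say how many animals gave each sample or whether animals were pooled. Each group was therefore 1 library, no test between groups was possible, and every difference below lacks a replicate check. Besides all cells together, cells were compared inside the authors' clusters 0, 1, 2, 4 and 6, each with at least 51 cells per library.

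The spleen is a reservoir of CD11b+ myeloid cells. Classical monocytes (Ly6c2-high) and non-classical monocytes (marked by Ace, Spn and Treml4) are stored there and can leave for sites of inflammation, and tumors are known for expanding splenic monocytes and neutrophils. S100a8 and S100a9 encode both chains of calprotectin, a calcium-binding alarmin that is very abundant in neutrophils and present in classical monocytes. Lyz2 encodes lysozyme, an antibacterial enzyme of monocytes and macrophages. Interferon-gamma acts on guanylate-binding proteins (the Gbp genes) and, through the co-activator Ciita, on MHC class II, which presents antigen to CD4+ T cells.

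The libraries were alike in depth and quality. They held 4422486 and 5752217 UMIs (counted molecules) in naive and tumor-bearing spleen, with medians of 10658 and 9827 UMIs per cell. Mitochondrial transcripts took 3.07% and 3.35% of UMIs, and ribosomal-protein transcripts 18.4% and 18.7%. Levels are given as counts per 1000000 UMIs of a library (CPM), and paired values stand in the order naive, tumor-bearing. Itgam, the gene of CD11b, stood at 292 and 293 CPM, and Csf1r, the growth factor receptor of monocytes, at 793 and 771 CPM. No cell barcode was shared between the spleen libraries. Summed markers of monocytes were 7444 and 7153 CPM, with none of the 14 at 0. Summed markers of neutrophils were 2894 and 4905 CPM, of macrophages 341 and 475 CPM, of conventional dendritic cells 441 and 472 CPM and of B cells 384 and 385 CPM. The neutrophil and macrophage sums were higher in tumor-bearing spleen, and their part in the differences below was not tested, except where a value is given beside a result. The neutrophil sum includes S100a8, S100a9 and Retnlg, and the dendritic cell sum includes H2-Eb1, so these sums are not independent of those genes.

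By its leading genes over all libraries, cluster 4 was monocyte-like (Ace, Spn, Treml4 and Ear2 among them) and cluster 12 neutrophil-like, the latter with 16 naive and 23 tumor-bearing cells. Clusters 0, 1, 2 and 6 were left unnamed. Cluster 6 met the marker count for B cells, but Cd209a, a dendritic cell gene, stood among its leading genes. Cluster 0 was led by Mmp8, Camp and F13a1, cluster 1 by Serpinb10, Tppp3 and Ace, and cluster 2 by Fam26f, Slc40a1 and Ifi47. Cluster 0 took 22.8% (18.9 to 27.2) of naive and 18.8% (15.7 to 22.3) of tumor-bearing cells, cluster 1 25.7% (21.6 to 30.2) and 28.5% (24.9 to 32.4), cluster 2 17.5% (14.0 to 21.6) and 22.1% (18.8 to 25.7), cluster 4 15.9% (12.5 to 19.7) and 13% (10.3 to 16.0), and cluster 6 12.3% (9.27 to 15.8) and 12.4% (9.86 to 15.4). The intervals in parentheses, here and below, are exact at 95% and cover counting error only. The intervals of the 2 libraries overlapped for each of these 5 clusters.

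Few genes differed by a wide margin. Of 5426 genes measured (at least 30 UMIs in both libraries together and 20 CPM in one), 18 were higher in tumor-bearing spleen by 2-fold or more (0.332% of genes) and 3 were lower (0.0553%). At 1.5-fold these were 82 (1.51%) and 36 (0.663%). The median log2 ratio over all measured genes was 0.02. Of the 4543 genes measured in every one of the 5 clusters too, 32 (0.704%) passed 1.5-fold on the higher side over all cells and lay on that side in all 5, and 18 (0.396%) did so on the lower side. With no minimum fold, 9.33% of these genes were on the higher side in all 5 clusters and 7.11% on the lower side. Weighting the 5 clusters equally gave 86 higher (1.58%) and 35 lower genes (0.645%) at 1.5-fold. When each gene lost the 1 cell with most of its UMIs, 67 of the 82 higher and 32 of the 36 lower genes still passed 1.5-fold.

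Detection, the share of cells with at least 1 UMI of a gene, was compared after every cell had been thinned to 5000 UMIs. This left 404 naive and 565 tumor-bearing cells and removed 12 and 14 shallower ones. By this measure 42 genes (0.774%) were found in at least 10 percentage points more of the tumor-bearing cells and 20 (0.369%) in at least 10 points fewer. Of the 42, 17 were past 1.5-fold and 3 past 2-fold, and 31 were on that side of detection in all 5 clusters. Of the 20, 3 were past 1.5-fold, and 16 were on that side in all 5 clusters. The 5 clusters held 94.2% of naive and 94.8% of tumor-bearing cells, so their sides are not independent of the all-cell difference. The share of all measured genes on 1 side of detection in all 5 clusters was not computed. With thinning to 3000 UMIs, 16 of the 42 and 5 of the 20 kept a difference of 10 points.

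The widest gap in detection among the measured genes was that of S100a8 (chromosome 3, 90668978 to 90670035, GRCm38). It was found in 31.9% (27.4 to 36.7) of naive and 89.2% (86.3 to 91.6) of tumor-bearing cells, and without thinning in 49.8% and 97.2%. The gap recurred in each cluster, at 35.1% and 89.6% in cluster 0, 32.1% and 89.6% in cluster 1, 28.6% and 89.7% in cluster 2, 34.8% and 90.4% in cluster 4 and 15.7% and 84.7% in cluster 6. The median cell held 0 S100a8 UMIs in naive and 4 in tumor-bearing spleen, and the tumor-bearing median was 4 in each of the 5 clusters. The summed level differed less than detection did. It was 1098 CPM in naive and 2075 CPM in tumor-bearing spleen, 1.89-fold (1.83 to 1.95) higher, and 1.51-fold without the top cell of 2451 UMIs. Inside clusters 0, 1, 2, 4 and 6 the S100a8 fold was 2.65, 3.46, 2.32, 1.89 and 10.4. Few cells weighed on most of these folds. Cells with at least 50 S100a8 UMIs numbered 3, 2, 3, 4 and 0 in naive and 5, 3, 6, 5 and 1 in tumor-bearing spleen. They held 94.4%, 72.6%, 91.1%, 93.8% and 0% of the naive S100a8 UMIs of these clusters. In tumor-bearing spleen they held 83.0%, 45.4%, 74.6%, 78.3% and 15.8%.

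S100a9, the partner chain, was detected in 46.8% (41.8 to 51.8) of naive and 92.9% (90.5 to 94.9) of tumor-bearing cells, with a summed level of 1290.5 CPM in naive and 2021 CPM in tumor-bearing spleen (1.57-fold higher). Retnlg, a secreted resistin-like protein of neutrophils, was detected in 8.91% and 26.5% of cells and Ifitm1, an interferon-induced membrane protein also found in neutrophils, in 5.94% and 21.8%. For Retnlg the all-cell fold was 1.63 and the fold with equal weights of the 5 clusters 4.34. The second value leaves out the neutrophil-like cluster 12, which held 412 of 645 naive and 274 of 1367 tumor-bearing Retnlg UMIs. S100a8, S100a9 and Retnlg were higher in tumor-bearing spleen in each of the 5 clusters, and Ifitm1 in 4 of them, with 89 and 82 UMIs (1.17-fold lower) in cluster 0. In blood, where 814 naive and 354 tumor-bearing cells were counted, S100a8 was at 561 and 1685 CPM, S100a9 at 604 and 1639.6 CPM and Retnlg at 86.8 and 219 CPM, so all 3 were higher in tumor-bearing blood too.

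**Figure D1:**
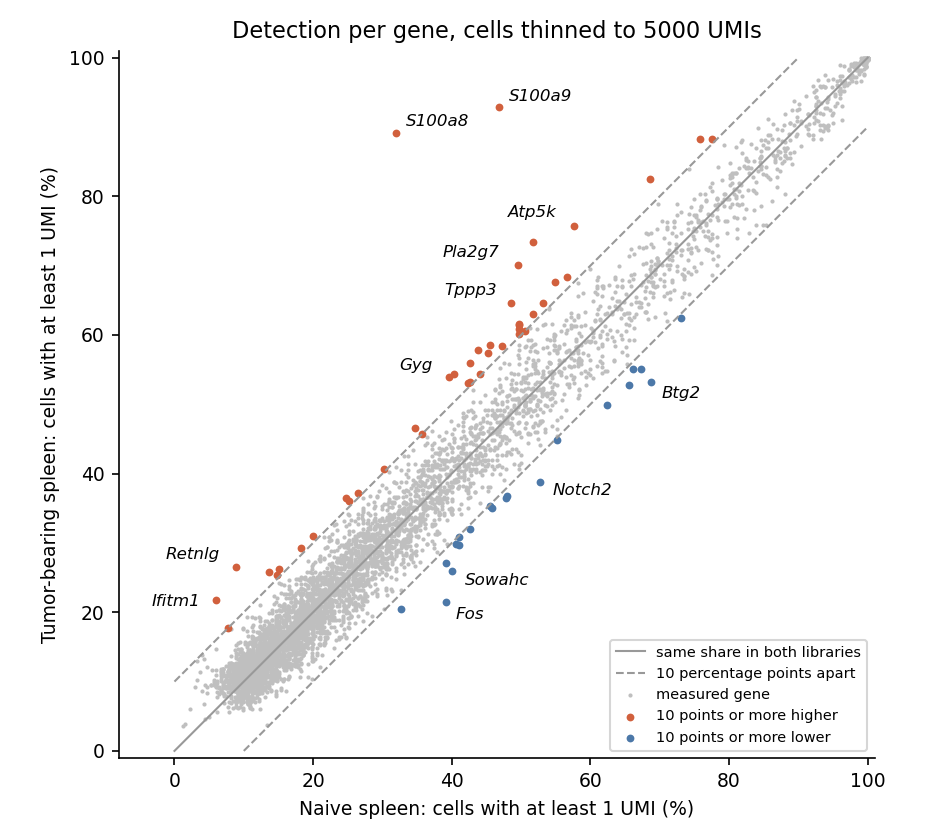
Each point is 1 measured gene, placed by the percentage of naive (x) and tumor-bearing (y) spleen cells with at least 1 UMI after thinning to 5000 UMIs per cell; the solid line marks equal shares and the dashed lines a difference of 10 percentage points. S100a8 (31.9% against 89.2%) and S100a9 (46.8% against 92.9%) stand far above the line, while most genes lie between the dashed lines.

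S100a8 UMIs were spread over cells in a different way in each library. Cells with at least 50 S100a8 UMIs, a value chosen after the distribution was seen, made up 18 of 416 naive cells (4.33%, 2.58 to 6.75) and 26 of 579 tumor-bearing cells (4.49%, 2.95 to 6.51). The shares of such cells thus overlapped within counting error. They held 94.5% of all S100a8 UMIs in naive and 78.9% in tumor-bearing spleen. A further 0 naive and 5 tumor-bearing cells had from 20 to 49 UMIs. In all cells below 50 UMIs, S100a8 stood at 63.4 and 464 CPM. Over the 5 clusters this low level ranged from 45.5 to 82.0 CPM in naive and from 411 to 552 CPM in tumor-bearing cells. These 5 clusters are parts of the same 2 libraries and are not replicates, and S100a8 was taken up for its wide gap in detection. In the neutrophil-like cluster 12 the cells below 50 UMIs stood at 54.0 and 977 CPM, the tumor-bearing value above those of the 5 clusters. In the cells at or above 50 UMIs the level was 19969 and 28637 CPM.

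The neutrophil markers besides S100a8 and S100a9, with Lcn2, Ifitm1, Wfdc17 and Lrg1 added, made 15 other genes. Wfdc17 did not set the high cells apart, at 1026 CPM in naive cells below 50 S100a8 UMIs and 1092 CPM in the others. The share over all measured genes was not computed for the next comparison. Of the 15 genes, 14 had a UMI in a larger share of the tumor-bearing than of the naive cells below 50 S100a8 UMIs. The exception was Mmp8, a collagenase, at 34.9% and 34.4%, and Wfdc17 was near level at 96.7% and 98.6%. Wfdc21 had a UMI in 1.01% and 16.5% of these cells, Lcn2, an iron-siderophore-binding protein, in 4.77% and 21.3%, Ngp, a granule protein, in 7.54% and 23.9%, and Cxcr2, a chemokine receptor of neutrophils, in 2.26% and 8.86%. Csf3r, the receptor of G-CSF, which monocytes carry too, was in 73.9% and 78.1%. The ratio of S100a9 to S100a8 UMIs differed between the low and the high cells. It was 1.91 below and 1.13 above the 50-UMI line in naive spleen, and 1.32 and 0.882 in tumor-bearing spleen. In cluster 6, with immunoglobulin genes among its leading genes, the cells below 50 UMIs held S100a8 at 45.5 and 412 CPM. Free RNA in droplets gives low levels in all cell types, and its part in these values was not tested.

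**Figure D2:**
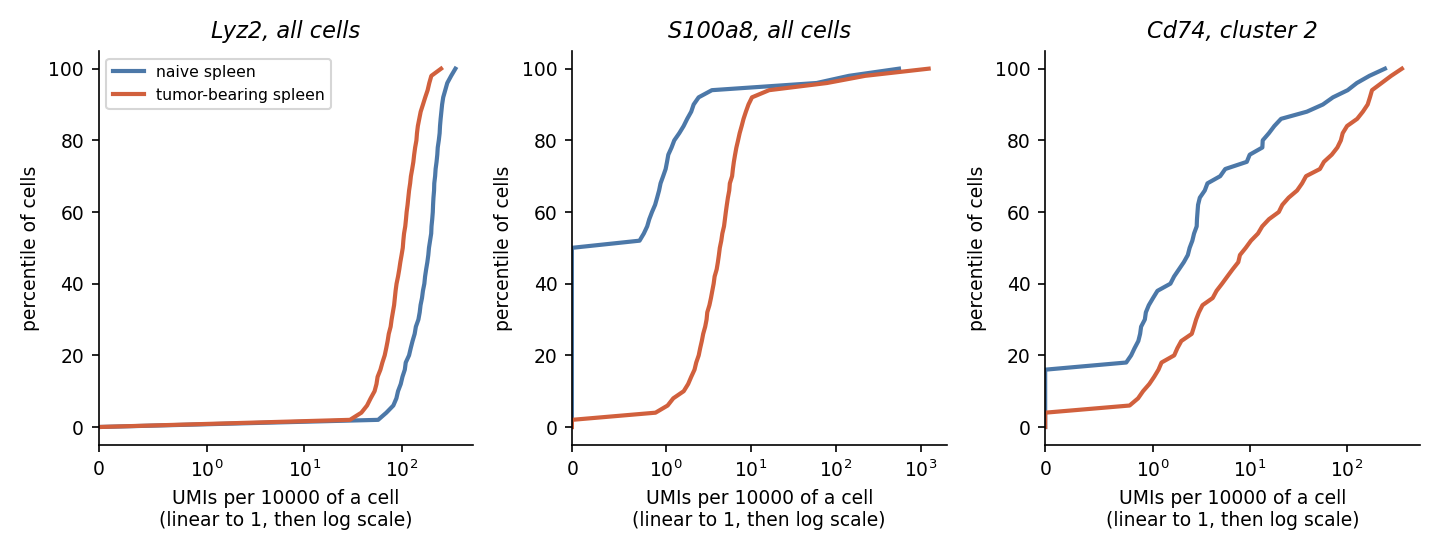
Percentile of cells (y) against UMIs per 10000 of a cell (x, linear to 1 and logarithmic beyond) for Lyz2 and S100a8 over all cells and Cd74 in cluster 2, with 1 curve per spleen library. For S100a8 the naive curve stays at 0 up to the median cell and the tumor-bearing curve leaves 0 near the bottom, the Lyz2 curve of tumor-bearing spleen lies to the left of the naive one, and its Cd74 curve to the right.

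Beyond these genes, detection differed by 10 or more points for a set with moderate folds. Pla2g7, which encodes an enzyme that breaks down platelet-activating factor, was found in 49.5% (44.5 to 54.5) of naive and 70.1% (66.1 to 73.8) of tumor-bearing cells (1.65-fold higher). Tppp3, a tubulin-binding protein, was found in 48.5% and 64.6% of cells (1.35-fold higher) and Gyg, which primes glycogen, in 39.6% and 54.0% (1.44-fold higher). Atp5k and Ndufa3, subunits of ATP synthase and of complex I, were found in 57.7% and 75.8% and in 68.6% and 82.5% of cells, and Pet100, an assembly factor of complex IV, in 40.3% and 54.3%. Of the respiratory chain genes, 35 of 40 measured were on the higher side, where 54.3% of all measured genes were. Their median log2 ratio was 0.16 against 0.02 over all genes. Of the list, 1 member was past 1.5-fold, Atp5k at 1.70-fold (1.56 to 1.86) higher, beside 1.51% of all measured genes.

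Fkbp5, a glucocorticoid-inducible chaperone that dampens the glucocorticoid receptor, was past 2-fold over all cells and in each of the 5 clusters. It stood at 8.82 CPM in naive and 33.4 CPM in tumor-bearing spleen, 3.79-fold (2.67 to 5.49) higher, and was detected in 3.96% (2.28 to 6.35) of naive and 13.8% (11.1 to 16.9) of tumor-bearing cells. In clusters 0, 1, 2, 4 and 6 the Fkbp5 fold was 9.97, 4.26, 2.10, 3.44 and 3.34, so it was higher in all 5, and in blood it was 2.74-fold higher. With 8.82 CPM over the naive library, each cluster fold rests on few naive UMIs, so its size is uncertain. Other listed targets of the glucocorticoid receptor were not on one side. Of 8 measured, Fkbp5 included, 3 were on the higher side, where 54.3% of all measured genes were, and 5 on the lower. Their median log2 ratio was -0.11. Txnip was 1.23-fold lower, Klf9 1.44-fold higher and Ddit4 1.23-fold higher.

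Genes of acute-phase proteins and alarmins were on the higher side as a group. Of 21 measured, 19 were above 1 and 8 past 1.5-fold, where 54.3% and 1.51% of all measured genes were. For the list, the median log2 ratio was 0.44 (0.63 in blood). S100a8, S100a9, Retnlg and Lcn2 are also abundant in neutrophils. The neutrophil marker sum given above includes S100a8, S100a9 and Retnlg and is not independent of their values. The neutrophil-like cluster 12, named over all libraries, took 3.85% of naive and 3.97% of tumor-bearing cells. Of its spleen cells, 5 of 16 naive and 6 of 23 tumor-bearing ones had at least 50 S100a8 UMIs. Such cells also lay outside cluster 12, at the counts given above. The share of cluster 12 is therefore not a measure of the neutrophils in a library. Among genes on the monocyte surface, Cd300lf, an inhibitory lipid receptor, was 2.47-fold (1.94 to 3.18) higher. Clec4e (Mincle) and Clec4n (Dectin-2), lectins that sense fungal and mycobacterial glycolipids and mannans, were 1.89-fold higher and 1.88-fold higher. Vcan, a matrix proteoglycan made by classical monocytes, was at 45.2 CPM in naive and 103 CPM in tumor-bearing spleen (2.28-fold higher), and Chil3, a chitinase-like protein, at 1709 CPM in naive and 2944 CPM in tumor-bearing spleen (1.72-fold higher and 1.09-fold to 2.19-fold over the 5 clusters). Dpep2, a dipeptidase that cleaves leukotriene D4, was 1.93-fold higher. Id1 and Id2, which block basic helix-loop-helix factors, were 1.97-fold higher and 1.44-fold higher. Tnfaip2, a gene induced by TNF, was 1.52-fold higher and on that side in all 5 clusters. Dgat2, the last enzyme of triglyceride synthesis, was 1.77-fold higher, Serpinb1a, an inhibitor of neutrophil elastase, 1.88-fold higher, and Slc28a2, a nucleoside transporter, 1.98-fold higher. Of the 82 genes past 1.5-fold, 69 were measured in blood too, 62 on the same side and 41 past 1.5-fold there. In blood, 1.62% of all measured genes were that much higher.

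**Figure D3:**
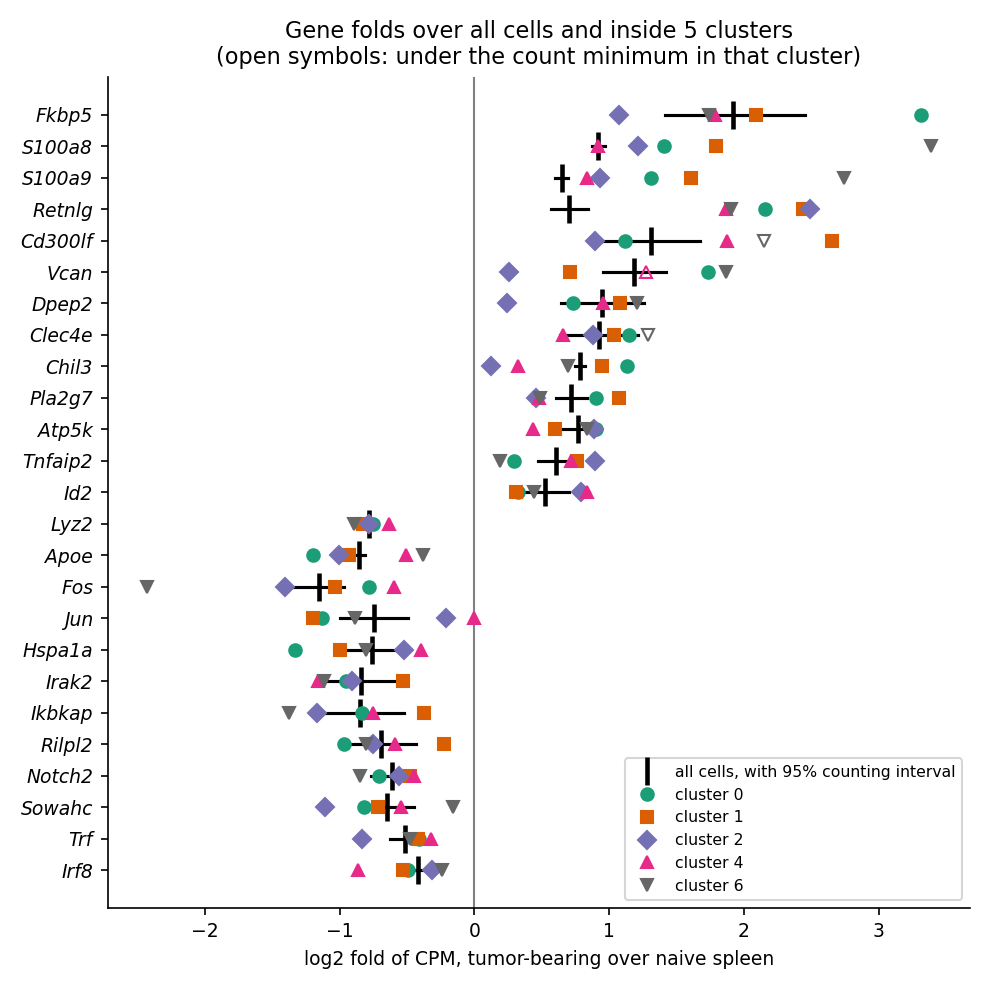
Log2 fold of tumor-bearing over naive spleen for 25 genes, with a black bar and its 95% counting interval for all cells and 1 coloured symbol for each of clusters 0, 1, 2, 4 and 6 (open where the gene was under the count minimum in that cluster). Fkbp5 lies right of 0 in all 5 clusters and Lyz2 left of 0 in all 5, with the cluster values of Lyz2 close together.

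Lysozyme transcripts were lower in tumor-bearing spleen in every cluster compared. Lyz2 stood at 18259 CPM in naive and 10610 CPM in tumor-bearing spleen, 1.72-fold (1.70 to 1.74) lower. The fold was alike in clusters 0, 1, 2, 4 and 6, at 1.69, 1.78, 1.72, 1.55 and 1.85. The median cell held 194 Lyz2 UMIs in naive and 99 in tumor-bearing spleen, with quartiles of 131 and 255 against 64.5 and 138, so all 3 quartiles were lower in tumor-bearing cells. Lyz1, an adjacent near-identical copy, was at 18171 CPM in naive and 12310 CPM in tumor-bearing spleen (1.48-fold lower). The counting could split reads between both copies, so each value alone is uncertain. Lyz2 was also lower in tumor-bearing blood (17731 and 12133 CPM).

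Apoe, the main apolipoprotein of macrophages, stood at 2219.6 CPM in naive and 1225 CPM in tumor-bearing spleen, 1.81-fold (1.76 to 1.87) lower, and its fold ran over 1.30-fold to 2.30-fold lower in the 5 clusters. Lpl, the lipase that frees fatty acids from lipoproteins, was at 52.5 CPM in naive and 21.0 CPM in tumor-bearing spleen (2.49-fold lower), and in cluster 4 it was under the count minimum, with 3 and 12 UMIs. In blood, Apoe was at 2924 and 1498 CPM and Lpl at 69.8 and 17.2 CPM. The lipid uptake and cholesterol genes did not shift as a list, with a median log2 ratio of -0.07. Of 22 measured, 9 were above 1, where 54.3% of all measured genes were. Trf, the iron carrier transferrin, was 1.43-fold lower and Cyp27a1, a sterol hydroxylase, was found in 32.7% and 20.5% of cells.

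Immediate early genes, which cells switch on within minutes of a stimulus, were mostly on the lower side. Fos, a subunit of AP-1, was at 143 CPM in naive and 64.1 CPM in tumor-bearing spleen, 2.23-fold (1.96 to 2.54) lower, and was found in 39.1% (34.3 to 44.1) of naive and 21.4% (18.1 to 25) of tumor-bearing cells. Jun, its partner, was 1.68-fold lower but level in cluster 4 (43 and 42 UMIs, 62.0 and 61.8 CPM). Of 17 measured members, 3 were above 1 and 14 below, where 45.7% of all measured genes were below, and the median log2 ratio was -0.16. The list's median was -0.31, -0.14 and -0.24 in clusters 0, 1 and 2, but near 0 in clusters 4 (8 of 17 above 1) and 6 (7 of 17). Heat shock genes, which encode stress-induced chaperones, had 1 of 12 above 1 and a median of -0.17, with 8 of 12 above 1 and a median of 0.10 in cluster 2, and Hspa1a, an inducible Hsp70, was 1.69-fold lower. In blood the difference in Fos ran the other way, at 243 and 331 CPM, and the immediate early median was 0.05. Ppp1r15a, which removes the stress phosphate from eIF2 alpha, was 1.83-fold lower, and Btg2, an anti-proliferative early gene, was found in 68.8% and 53.3% of cells.

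Further genes on the lower side act in signalling and transcription. Irak2, a kinase of the Toll-like and interleukin-1 receptor pathway, was 1.79-fold (1.42 to 2.26) lower. Notch2, a receptor that monocytes need to become non-classical, was 1.52-fold lower and found in 52.7% (47.7 to 57.7) of naive and 38.8% (34.7 to 42.9) of tumor-bearing cells. Irf8, which sets monocyte and dendritic cell fate, was 1.34-fold lower, and the chemokine Ccl9 1.34-fold lower. Sowahc was found in 40.1% and 26.0% of cells and was 1.57-fold lower, Rilpl2, a regulator of cilia, was 1.62-fold lower, and Ikbkap, a subunit of Elongator, 1.80-fold lower. Notch2, Irak2, Sowahc, Rilpl2 and Ikbkap were on the lower side in all 5 clusters. Iglc1, an immunoglobulin light chain constant region, was 3.36-fold lower and lower in all 5 clusters, but belongs to a family of near-identical genes and is uncertain. The 26 measured monocyte transcription factors had 10 above 1, where 54.3% of all measured genes were, and a median of -0.08. Of the 36 genes past 1.5-fold lower, 32 were measured in blood, 25 on the same side and 10 past 1.5-fold there, beside 0.755% of all genes in blood.

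Cluster 2 differed in interferon-gamma-inducible and MHC class II genes. In this cluster, of 73 naive and 128 tumor-bearing cells, 117 genes (2.11%) lay 2-fold or more on the higher side and 56 (1.01%) on the lower side. Of 31 listed interferon-gamma-inducible genes, 26 were measured, 25 were above 1, 16 passed 1.5-fold and 10 passed 2-fold on the higher side, with a median log2 ratio of 0.73. None was 1.5-fold lower. Over all genes of the cluster the shares at 1.5-fold were 7.8% higher and 5.78% lower, and 50.5% were above 1. In clusters 0, 1, 4 and 6 the list's median was 0.22, 0.0032, -0.17 and -0.00039, and in blood -0.06. Type I interferon-stimulated genes, which respond to interferon-alpha and interferon-beta, had a median of 0.01 in cluster 2. Of 10 MHC class II genes and partners, 7 were measured in cluster 2, all above 1, 5 were at least 2-fold higher and the median was 1.32. The class II median in clusters 0, 1, 4 and 6 was 0.37, -0.24, -0.50 and -0.18. Ifi47, Gbp5 and Irgm2 were among the leading genes that set cluster 2 apart, and the authors' clusters were made from the cells compared here, so which cells entered the cluster is not independent of these values.

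The regulatory letters of 6 genes higher in cluster 2 are shown, 5 of them from these lists, which hold targets of a known pathway, and Fcgr4, which is in neither list. Interferon-gamma acts through a GAS element and an ISRE, the latter bound by IRF factors, and class II promoters hold an inverted CCAAT box bound by NF-Y. Each line gives the 150 bases before the RefSeq start site (GRCm38.p6), 5′ to 3′ on the gene's strand, with matches in capitals. Both strands were searched for GAS as TTCNNNGAA, for ISRE as GAAANNGAAA and for the inverted CCAAT box as CTGATTGG. Gbp2 lies at chr3:142620513-142620662, plus strand, Gbp7 at chr3:142530186-142530335, plus strand, Serpina3g at chr12:104235997-104236146, plus strand, Fcgr4 at chr1:171018776-171018925, plus strand, H2-Aa at chr17:34287824-34287973, minus strand, and H2-Eb1 at chr17:34305717-34305866, plus strand.
Gbp2: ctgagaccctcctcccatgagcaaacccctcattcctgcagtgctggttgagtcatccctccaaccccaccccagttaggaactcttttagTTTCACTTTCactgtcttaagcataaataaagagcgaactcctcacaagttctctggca
Gbp7: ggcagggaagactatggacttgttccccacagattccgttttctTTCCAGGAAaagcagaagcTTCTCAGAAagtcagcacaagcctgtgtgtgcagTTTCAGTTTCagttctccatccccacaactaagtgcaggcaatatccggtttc
Serpina3g: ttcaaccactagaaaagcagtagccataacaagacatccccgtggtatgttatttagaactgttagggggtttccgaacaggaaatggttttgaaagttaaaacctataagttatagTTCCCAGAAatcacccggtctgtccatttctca
Fcgr4: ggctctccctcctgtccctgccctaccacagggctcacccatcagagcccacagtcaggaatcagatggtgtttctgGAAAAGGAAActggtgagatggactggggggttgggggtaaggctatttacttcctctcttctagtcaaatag
H2-Aa: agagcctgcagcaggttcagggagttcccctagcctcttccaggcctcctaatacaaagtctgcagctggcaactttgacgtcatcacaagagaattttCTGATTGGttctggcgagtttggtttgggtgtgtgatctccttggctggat
H2-Eb1: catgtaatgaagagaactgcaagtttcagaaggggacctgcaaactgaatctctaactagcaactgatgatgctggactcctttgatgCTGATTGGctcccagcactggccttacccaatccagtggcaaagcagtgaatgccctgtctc
The capitals are an ISRE in Gbp2 and Fcgr4, successive GAS matches and then an ISRE in Gbp7, a GAS in Serpina3g, and the inverted CCAAT box in H2-Aa and H2-Eb1. Of 32851 mouse promoters of this length, 4.09% held a GAS match, 1.59% an ISRE match and 3.16% the inverted CCAAT box. Of the 31 interferon-gamma-inducible genes, 22 had a promoter in the RefSeq table, of which 10 held a GAS and 10 an ISRE match. Of the 10 class II genes, 7 had one, of which 3 held the CCAAT box (H2-Aa, H2-Eb1 and H2-Oa). In these lists a gene was counted when any of its promoters matched, while the shares over all promoters are per promoter. The list counts and those shares are therefore unlike measures. A match is a description of the letters and not evidence of binding.

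Among the genes with these letters, Gbp2, a GTPase that attacks pathogen vacuoles, was at 166 and 568 CPM in cluster 2, 3.42-fold (2.83 to 4.15) higher, with a UMI in 54.8% and 68.0% of cells. Gbp7 was 2.08-fold (1.52 to 2.91) and Serpina3g, an intracellular protease inhibitor, 12.2-fold (3.99 to 60.8) higher. Gbp4 had 1 UMI in naive and 67 in tumor-bearing cells, a ratio of 38.4 with a counting interval of 6.65 to 1537. Irf1, a transcription factor of the pathway, was 1.83-fold (1.47 to 2.29) higher. Fcgr4, the activating Fc receptor of non-classical monocytes, was 2.49-fold (1.61 to 3.97) higher, with a UMI in 23.3% and 50.8% of cells.

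Cd74, the invariant chain that guards the class II groove, was at 1877 and 4788 CPM in cluster 2, 2.55-fold (2.41 to 2.70) higher. Its quartiles per cell were 1, 3 and 8 UMIs in naive and 2, 9 and 64.25 in tumor-bearing cells, so the difference widened toward the upper part of the distribution. In clusters 0, 1, 4 and 6 Cd74 was 1.36-fold, 1.42-fold, 1.28-fold and 1.19-fold lower. H2-Aa and H2-Ab1, the alpha and beta chains of I-A, reached 2.50-fold (2.23 to 2.82) and 2.34-fold (2.06 to 2.66) on the higher side in cluster 2, and H2-Eb1, the beta chain of I-E, 3.03-fold (2.54 to 3.64). H2-Aa had a UMI in 39.7% and 66.4% of cells, and 8 of the 128 tumor-bearing cells held 50% of its UMIs there. Ciita, the class II co-activator, was 2.64-fold (1.57 to 4.67) higher. The loading factors differed less: H2-DMa was 1.27-fold (1.10 to 1.47) and H2-DMb1 1.66-fold (1.34 to 2.09) higher. Other gene groups were also higher in cluster 2. Of the non-classical monocyte genes, 11 of 16 were above 1 there and 8 past 1.5-fold, with a median log2 ratio of 0.40, and all 18 measured MHC class I and peptide loading genes were above 1, 4 of them past 1.5-fold, with a median of 0.35. Over all genes of the cluster, 50.5% were above 1. The macrophage sum was 388 and 846 CPM, and without the 1 cell richest in these markers in each library 379.6 and 526 CPM. The conventional dendritic cell sum was 339 and 697 CPM, but it includes the class II gene H2-Eb1, at 194 and 587 CPM there. That sum is therefore not independent of the class II values. The B cell sum was 413 and 399 CPM. The part of the monocyte, macrophage and dendritic cell genes in the class II values was not tested. Without the single cell richest in each gene the class II median was 1.25 and the interferon-gamma median 0.75.

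**Figure D4:**
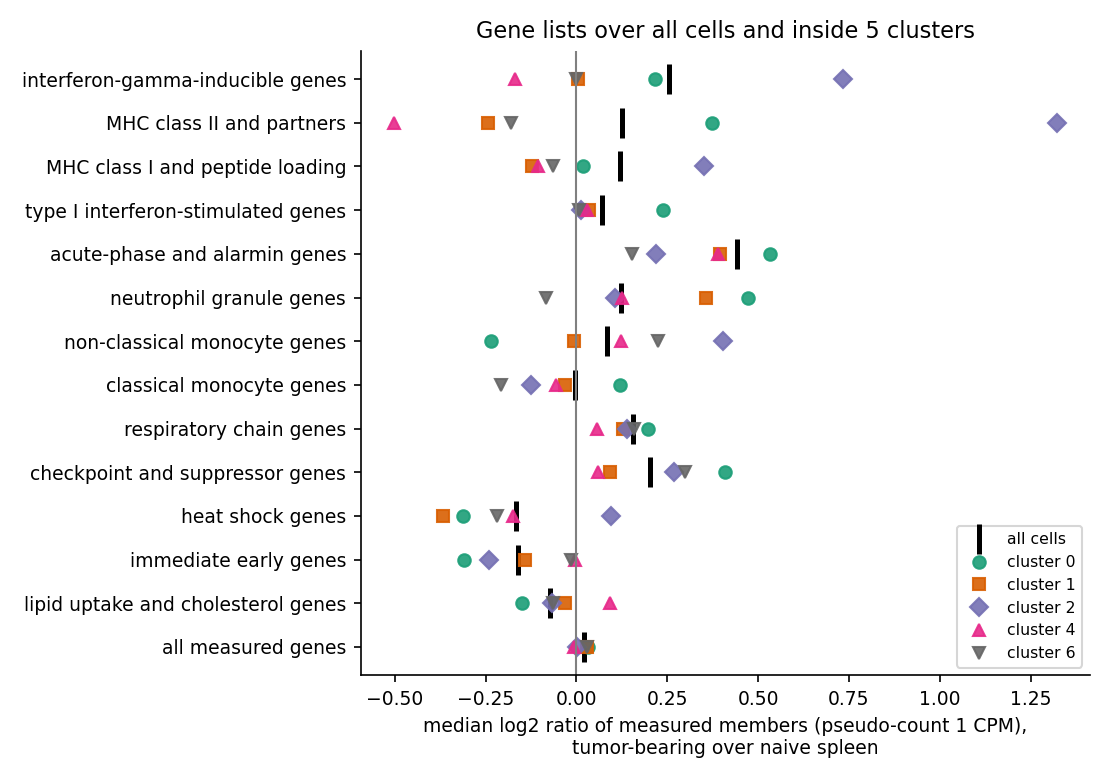
Median log2 ratio of tumor-bearing over naive spleen for 13 gene lists and all measured genes, over all cells and in clusters 0, 1, 2, 4 and 6. In cluster 2 the MHC class II value of 1.32 and the interferon-gamma value of 0.73 lie right of those of the other 4 clusters, while acute-phase and alarmin genes lie above 0 over all cells.

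Surface antibodies existed for MHC class II and for the protein of Fcgr4. The I-A-I-E antibody, which binds MHC class II, took 1.24% and 1.94% of the tags of cluster 2 (1.56-fold higher), and CD16.2, the antibody to the Fcgr4 protein, 0.892% and 1.71% (1.92-fold higher). Median counts per cell were 21 and 17.5 for I-A-I-E and 16 and 20 for CD16.2. Total tags per cell were fewer too, with medians of 2126 and 1784. The median share per cell was 0.929% and 1.06% for I-A-I-E, and 0.756% and 1.06% for CD16.2. Ly-6C took 37.5% and 30.5% of the tags of cluster 2, and a lower share of an abundant antibody raises the others. The summed I-A-I-E share was also 1.44-fold higher in cluster 6, where the class II RNA median was below 0, and 1.04-fold higher in cluster 0, 1.04-fold lower in cluster 1 and 1.18-fold lower in cluster 4. Over all cells I-A-I-E was at 1.35% and 1.60%. The CD16.2 share was higher in clusters 0, 1, 4 and 6 too, at 1.17-fold, 1.28-fold, 1.37-fold and 1.43-fold.

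A handful of tumor-bearing cells were rich in C1q, the complement starter made by tissue macrophages. None of the 416 naive cells and 7 of the 579 tumor-bearing cells had at least 5 UMIs of C1qa, C1qb and C1qc together, a count chosen after the values were seen. With a limit of 3 cells for a count of 0, none of 416 allows a share of up to 0.721%. The top cell held 201 of the 417 C1q UMIs of the tumor-bearing library and the next 48, and 3 of the 7 cells were in cluster 2. These cells also held 90 of 158 UMIs of Vcam1, an adhesion molecule of splenic macrophages, and 100 of 219 of Slc40a1, the iron exporter ferroportin. The naive cells held 46 C1q UMIs in all, with at most 3 in a cell.

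The other clusters held fewer genes past 2-fold than cluster 2 did on the higher side. In cluster 0, 103 genes (1.87%) passed 2-fold on the higher and 39 (0.707%) on the lower side. The widest higher ratios were those of Fkbp5 (4 and 43 UMIs, 9.97-fold), Lcn2 (15 and 164 UMIs, 10.1-fold), Mt1 (7 and 38 UMIs, 5.03-fold) and Ngp (7 and 39 UMIs, 5.17-fold), the third a metallothionein that binds zinc. The widest lower ones were Lpl (105 and 23 UMIs, 4.92-fold), Nf2 (24 and 8 UMIs, 3.24-fold) and Pla2g16 (24 and 10 UMIs, 2.59-fold). In cluster 1, 55 genes (0.997%) passed 2-fold on the higher and 38 (0.689%) on the lower side. Genes known from neutrophils led the higher side there, with Camp (2 and 38 UMIs, 13.5-fold) and Wfdc21 (2 and 37 UMIs, 13.1-fold), followed by Lrg1 (3 and 45 UMIs, 10.7-fold), an acute-phase glycoprotein, and Cd300lf (7 and 62 UMIs, 6.29-fold). Crip2 (35 and 9 UMIs, 5.48-fold), Lpl (65 and 20 UMIs, 4.58-fold) and G0s2 (23 and 8 UMIs, 4.05-fold), an inhibitor of the triglyceride lipase ATGL, led the lower side.

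In the monocyte-like cluster 4, 60 genes (1.2%) passed 2-fold on the higher and 63 (1.26%) on the lower side. Ifitm1 (15 and 94 UMIs, 6.39-fold) and Wfdc21 (14 and 75 UMIs, 5.46-fold) led the higher side, with Fpr2 (8 and 31 UMIs, 3.95-fold), a receptor for formylated peptides and serum amyloid A. P2rx4 (39 and 11 UMIs, 3.48-fold), an ATP-gated channel, and the chemokine Ccl5 (27 and 8 UMIs, 3.31-fold) led the lower side. In cluster 6, 86 genes (1.67%) passed 2-fold on the higher and 53 (1.03%) on the lower side. S100a8 (28 and 380 UMIs, 10.4-fold), Ifitm1 (4 and 43 UMIs, 8.27-fold) and S100a9 (56 and 488 UMIs, 6.71-fold) led the higher side, followed by Ctsl (10 and 60 UMIs, 4.62-fold), a lysosomal protease that trims the invariant chain. Fos (83 and 20 UMIs, 5.39-fold) and Cyp51 (35 and 12 UMIs, 3.79-fold), an enzyme of cholesterol synthesis, led the lower side. On the lower side of cluster 2 stood Flt3 (22 and 11 UMIs, 3.49-fold), the receptor of dendritic cell growth factor Flt3 ligand, and Dhrs3 (22 and 12 UMIs, 3.20-fold), a retinal reductase. Most of these genes had under 100 UMIs in a cluster, and genes known from neutrophils (S100a8, S100a9, Lcn2, Ngp, Camp, Wfdc21) stood among the leading higher genes in clusters 0, 1, 2, 4 and 6.

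Of 47 antibodies, 0 differed by 1.5-fold in their share of all tags, 4 (8.51%) had a share higher by 1.25-fold or more and 1 (2.13%) a share lower by as much. The lower one was Ly-6C, a protein used to separate classical from non-classical monocytes. Median counts were 898 and 422 in the monocyte-like cluster 4, beside 840 and 539 in cluster 0. The naive counts thus did not set cluster 4 apart. Ly-6C took 37.4% and 29.3% of all tags (1.28-fold lower), with median counts of 876 and 483 per cell. Its share was lower in each of the 5 clusters. The RNA of its gene differed little over all cells. Ly6c2 was at 1210 CPM in naive and 1292 CPM in tumor-bearing spleen (1.07-fold), on the higher side in clusters 0 and 2 and on the lower side in clusters 1, 4 and 6. The 4 higher antibodies were Sca-1 at 1.03% and 1.45% (1.40-fold), CD11b at 7.62% and 10.6% (1.39-fold), CD115, the protein of Csf1r, at 4.82% and 6.59% (1.37-fold), and CD16.2 at 1.14% and 1.51% (1.32-fold). Shares of tags add up to the same total, so a lower share of an abundant antibody raises the others. The median cell held 2302 tags in naive and 1649 in tumor-bearing spleen. Median counts of CD11b were 152 and 152 and of CD115 86 and 95 per cell, nearer to each other than the shares.

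**Figure D5:**
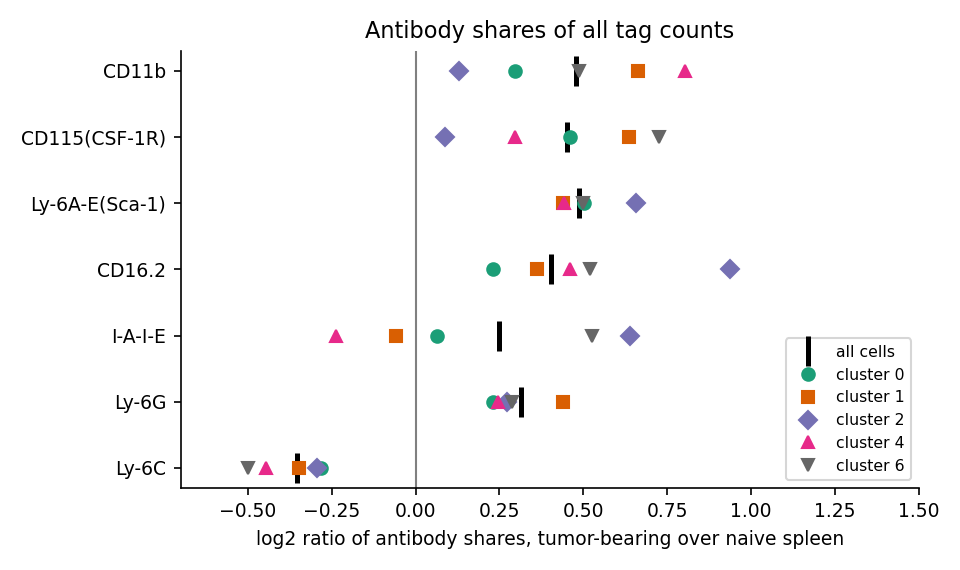
Log2 ratio of antibody shares of all tags, tumor-bearing over naive spleen, for 7 antibodies, over all cells and in clusters 0, 1, 2, 4 and 6. Ly-6C lies left of 0 in all 5 clusters, and for CD16.2 the cluster 2 symbol lies farthest right.

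Other lists are given by their medians over all cells, beside 0.02 for all measured genes. Of all measured genes, 54.3% were above 1. Checkpoint and suppressor genes had 11 of 13 measured members above 1 and a median log2 ratio of 0.20, and none was past 1.5-fold. Of the cathepsin and lysosome genes, 5 of 19 were above 1, with a median of -0.05, and Ctsl, 1.68-fold higher, was among them. Classical monocyte genes had a median of -0.0034 and non-classical monocyte genes of 0.09 over all cells. Glycolysis and hypoxia genes had a median of 0.07, interleukin-1 and inflammasome genes of 0.04, and MHC class I and peptide loading genes of 0.12, with none past 1.5-fold in these 3 lists. Of 30 cytokine and chemokine ligands, 6 were measured, with a median of -0.20. Neutrophil granule genes had 5 of 13 past 1.5-fold on the higher side, against 1.51% of all measured genes, and a median of 0.12, which was 0.47 with equal weights of the 5 clusters.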

How the data were processed

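The 2 spleen libraries, naive and tumor-bearing, each held RNA and antibody tags of CD11b-enriched cells, and the blood pair is given beside them. The authors deposited, for every cell, UMI counts of genes, antibody tag counts for 47 antibodies in the same cells, and metadata with each cell's library, cluster and mitochondrial fraction, which per the file headers is a fraction of the cell's UMIs. The submitters' processing notes name Cell Ranger and mm10. Its version, the annotation, the cell filters and the clustering settings are not stated in any source read here. Totals per cell equalled the metadata in 4290 cells. No further cell filter was applied to them here, apart from the thinned detection and the alternatives. Doublets were not called, and the alternative for them drops the 2% deepest cells of each library. The metadata listed 4527 cells, and those without counts were not used. Of the spleen barcodes, 1 also occurred in a library of another tissue.

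UMIs were summed per library or cluster and scaled to CPM with Python 3.11.15, numpy 2.4.6, scipy 1.17.1 and pandas 2.3.3. Folds have exact 95% conditional binomial intervals and shares exact Clopper-Pearson intervals, both for counting error only. A pseudo-count of 1 CPM entered the log2 ratios of lists, but not the folds. As each group was 1 library, nothing was tested. Scripts were tested on simulated data. Gene positions are from GENCODE M21 and promoters from RefSeq, GRCm38.p6.

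A cluster was named from 15 marker sets when at least 3 markers stood among its 10 leading genes. Named genes were the 12 highest and 12 lowest cluster-matched ratios among genes between 1.5-fold and 2-fold on 1 side in all 5 clusters, the 8 widest differences in detection each way, up to 4 members of each of 29 lists, the 4 highest and 4 lowest in each cluster with UMIs in at least 10 cells, genes at 2-fold, and the 3 antibodies with the widest ratio. Ranking skipped unnamed gene models and the genes of mitochondria, ribosomal proteins, haemoglobin and immunoglobulin, and those linked to sex. Other genes were named after their values were seen. The members, lists and rules were chosen with earlier results of these data known. Scaling, filters, thinning depth, top cells and cluster weights were varied.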

Additional observations from a re-analysis of the deposited data

How the results depend on the processing

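With no filter on low counts, 2-fold was passed by 547 genes upward and 369 downward, and 1.5-fold by 1276 and 767, since genes with a few UMIs then enter. With cells thinned to 5000 UMIs, 5 genes were at least 2-fold lower, and 140 higher and 82 lower at 1.5-fold. Thinning to 3000 UMIs gave 20 genes detected in more tumor-bearing cells, of which 16 were among the 42, and counting cells with 2 or more UMIs gave 26. On the lower side, thinning to 3000 UMIs gave 15 genes, of which 5 were among the 20 found at 5000 UMIs. With no thinning, 16 of the 42 and 14 of the 20 kept a difference of 10 points. Without thinning, 100 genes were detected in fewer tumor-bearing cells, which have the lower median depth. Other scalings, cluster weights and leaving out top cells, the 2% deepest cells or cluster 12 (the last chosen after seeing the data) kept these counts within 1.5 times.

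For 150 named genes under 9 alternatives, 1286 values lay inside and 64 outside the main counting interval, and none was reversed. Of 61 named genes past 1.5-fold, 53 to 60 stayed past it. With equal weights of the 5 clusters the list medians of MHC class II and neutrophil granule genes became 0.01 and 0.47 instead of 0.13 and 0.12. No paired analysis was possible because each group was 1 library. Animals, sorting and library cannot be told apart from tumor state, and counting intervals do not cover them.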

Other observations

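Some features that were left out of the ranking also lay on the higher side in all 5 clusters. Rpl37, a ribosomal protein gene, was at 559.9 CPM in naive and 958 CPM in tumor-bearing spleen (1.71-fold higher), with 1.53-fold to 1.86-fold over the clusters, and the retrocopy Rpl37rt was 1.65-fold higher. The pseudogene Rpl31-ps12 was 1.72-fold higher. Reads of such copies could be split between near-identical loci, so these values are uncertain. Ribosomal protein genes as a whole were on no common side, with 39 of 88 above 1 and a median log2 ratio of -0.02. These genes were picked after their values were seen, as were those that follow.

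Among regulators that met no rule for ranking at the extremes, Ahr, the ligand-activated aryl hydrocarbon receptor, was at 55.9 CPM in naive and 86.4 CPM in tumor-bearing spleen (1.55-fold higher and 1.38-fold to 1.54-fold over the 5 clusters). Gpr65, a proton-sensing receptor, was 1.62-fold higher, and Ano6, a lipid scramblase, 1.54-fold higher, both higher in all 5 clusters. Acvrl1, a receptor of BMP9, was at 44.5 CPM in naive and 27.8 CPM in tumor-bearing spleen (1.60-fold lower), and Rarg, a retinoic acid receptor, was 1.53-fold lower, both lower in all 5. Pattern receptor genes had 8 of 10 measured members above 1, where 54.3% of all measured genes were. Their median log2 ratio was 0.18, with none past 1.5-fold.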
